A study of Mus musculus with 2 samples.

Results

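The MAP kinase phosphatases and the Sprouty and SPRED proteins are inhibitors of receptor signalling through RAS and the MAP kinases, and 10 of their genes were followed here: Dusp1, Dusp2, Dusp4, Dusp5, Dusp6, Dusp10, Spry1, Spry2, Spred1 and Spred2. They were chosen by gene symbol, as all probe sets that the platform annotation assigns to 1 of these genes and to no other gene. This gave 23 probe sets of 10 genes, out of 34945 probe sets of 18193 genes with a single symbol. No probe set that carried several symbols named any of them.

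The cells were G1E cells, a mouse erythroid progenitor line with no functional GATA-1, which expressed ER-GATA-1(V205G). This fusion joins an estrogen receptor domain to GATA-1 carrying a substitution that impairs binding of the cofactor FOG-1, and estradiol activates it. Total RNA was hybridised from cells given 1 µM estradiol for 24 h (1 array) and from cells before treatment (1 array), and both groups carried the fusion and lacked GATA-1. The promoter that drives the fusion, and whether the line was a single clone, are not given in the sources used here. Neither untreated cells at 24 h nor cells lacking the fusion were analysed here, so effects of the activated mutant, of estradiol and of time in culture cannot be told apart.

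Receptor tyrosine kinases and cytokine receptors switch on RAS, which activates the RAF, MEK and ERK kinases in turn, while stress signals act mainly through the related p38 and JNK kinases. Dual-specificity phosphatases of the DUSP family remove both activating phosphates from these MAP kinases, and many are themselves transcribed in response to MAP kinase activity, which closes a negative feedback loop. Sprouty and SPRED proteins act further upstream and limit RAS and RAF activation. In erythroid and mast cell progenitors the pathway lies downstream of KIT and of the receptors for erythropoietin and interleukins.

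A signal is the authors' linear intensity for a probe set, in array units. Values below are after both arrays were set to the same trimmed mean, which left them almost as deposited. Signals under 95.2, the median over both arrays, were taken as below a floor, and a gene or probe set is called measured where both arrays reached it. Ratios are log2 of estradiol over untreated, and a gene takes the values of its brightest probe set. With 1 array per group there is no replicate check and no test between groups. The size set beside each ratio is the pooled SD among the log2 ratios that different probe sets give for 1 gene. It was 0.25 overall (4586 genes): 0.30 in the lowest tertile of genes by brightness, 0.25 in the middle one and 0.20 in the highest. The tertiles were cut over these 4586 genes, which had several measured probe sets. The same cuts were then used for all measured genes. The pooled SD covers probe noise and transcript forms, not differences between cultures. Brightness served to choose probe sets, to form the tertiles, to name markers and to sum the mast cell signals. It was not read as an amount of transcript, because each probe set has its own brightness.

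Among the members that could be measured, only Dusp1 differed at least 2-fold between the arrays. Of the 10 genes, 6 were measured (Dusp1, Dusp2, Dusp10, Spry1, Spred1 and Spred2) and 4 lay below the floor on both arrays (Dusp4, Dusp5, Dusp6 and Spry2). Among the 6, 1 was at least 2-fold higher after estradiol and 0 were at least 2-fold lower, against 2.04% higher and 1.10% lower among all 10240 measured genes. The other 5 measured members lay within 1.5-fold, as did 88.0% of all measured genes. The median log2 ratio of the 6 was -0.11, and that of all measured genes was 0.00. By probe set, 14 of 23 were measured and 9 were below the floor on both arrays.

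**Figure D1:**
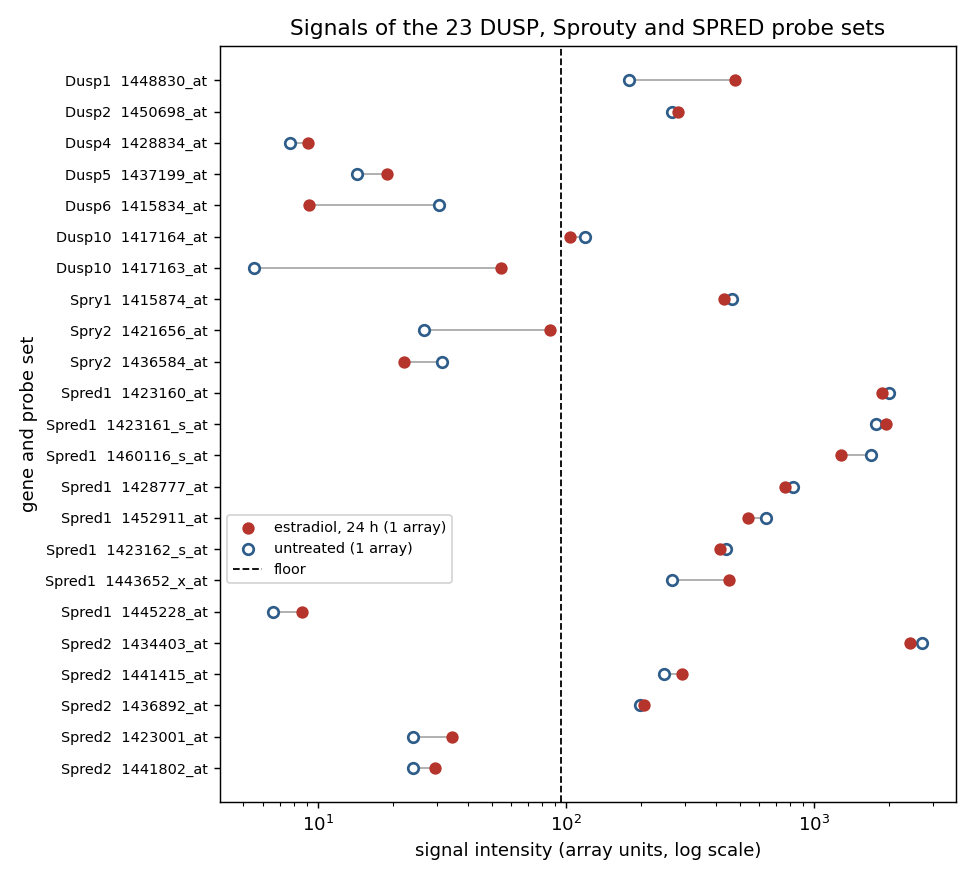
Signal of each of the 23 probe sets (rows, with gene and probe set name) on the estradiol array (filled red) and the untreated array (open blue), in array units on a log scale, with the floor of 95.2 as a dashed line. Of the probe sets right of the floor, that of Dusp1 has its points farthest apart, at 479 with estradiol and 179 untreated, and 9 probe sets lie left of the floor on both arrays.

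The plot of signals by probe set shows that the measured members sat at different brightness but mostly at nearly the same signal on both arrays. The widest gaps left of the floor belong to probe sets with weak signals on both arrays, for which no ratio was formed.

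Of the nuclear, inducible phosphatases that could be measured, Dusp1 was higher after estradiol, while the signals of Dusp2 were nearly equal. Dusp1 encodes a phosphatase that acts on p38, JNK and ERK in the nucleus and is an immediate early gene in many cell types. Its single probe set, 1448830_at, read 479 with estradiol and 179 untreated. The estradiol array was the higher, by 2.68-fold, a log2 ratio of 1.42 against 0.60 for 2 SD at this signal. Dusp1 ranked 72nd from the highest of 10240 measured genes by log2 ratio. Of 10240 measured genes, 4194 fell in the signal range of the lowest tertile. Among these, 0.811% lay at least as far from 0 in either direction, and 2.93% were at least 2-fold different. No second probe set of Dusp1 was available to set beside the first. The untreated signal was not far above the floor: raising the floor to the 70th percentile, a signal of 319, put it below and left only a bound, a log2 ratio of at least 0.59. In RNA from whole cultures, more cells of a type and more RNA per cell cannot be told apart.

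Dusp2, whose product is another nuclear phosphatase, best known from activated lymphocytes and other blood cells, read 282 with estradiol and 266 untreated. The log2 ratio of 0.09 lay within 2 SD of 0.60 and ranged from -0.03 to 0.09 over the other settings tried.

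The upstream sequences of Dusp1 and Dusp2, and that of Dusp16, are printed because Dusp1 and Dusp16 are the MAP kinase phosphatase genes past 2-fold and Dusp2 is a measured nuclear phosphatase that was not. Each is the 250 bases before a transcription start from the RefSeq promoter table on GRCm38.p6, 5′ to 3′ on the strand of the gene: chr17:26508473-26508722 on the minus strand for Dusp1, chr2:127335909-127336158 on the plus strand for Dusp2 and chr6:134792629-134792878 on the minus strand for Dusp16. The Dusp16 window belongs to a start site inside the annotated span of the gene, downstream of its outermost start, and positions are counted from that site. Capitals mark the cyclic AMP response element TGACGTCA, its shorter form TGACG and the E-box CACGTG, searched on both strands.
Dusp1: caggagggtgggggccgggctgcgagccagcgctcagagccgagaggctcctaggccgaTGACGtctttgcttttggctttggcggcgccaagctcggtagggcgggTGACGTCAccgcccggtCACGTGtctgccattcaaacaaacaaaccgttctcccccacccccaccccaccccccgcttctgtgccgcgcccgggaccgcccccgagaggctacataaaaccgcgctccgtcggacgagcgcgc
Dusp2: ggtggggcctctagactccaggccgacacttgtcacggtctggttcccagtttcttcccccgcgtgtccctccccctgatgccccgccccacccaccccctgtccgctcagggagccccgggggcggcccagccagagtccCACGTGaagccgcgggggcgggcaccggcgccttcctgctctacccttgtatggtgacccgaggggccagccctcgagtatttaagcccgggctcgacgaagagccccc
Dusp16: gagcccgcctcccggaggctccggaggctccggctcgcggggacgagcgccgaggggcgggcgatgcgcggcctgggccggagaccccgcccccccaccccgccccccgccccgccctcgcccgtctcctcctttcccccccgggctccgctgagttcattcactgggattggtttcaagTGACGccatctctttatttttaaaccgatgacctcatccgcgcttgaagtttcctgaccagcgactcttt
The Dusp1 window holds the full element TGACGTCA at 143 to 136 bases before the start, a further TGACG at 191 to 187, and CACGTG at 126 to 121. The full element itself contains TGACG on both strands. The Dusp2 window holds CACGTG at 109 to 104 bases before the start and no TGACG. The Dusp16 window holds 1 TGACG, at 70 to 66. Over all 32851 windows of this length in the table, 1.55% held TGACGTCA, 17.8% held TGACG and 6.02% held CACGTG.

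Of the 10 members, 9 had such a window (Dusp4 had none in the table). TGACGTCA was found in 1 of the 9 (Dusp1), TGACG in 3 (Dusp1, Dusp5 and Spred2) and CACGTG in 2 (Dusp1 and Dusp2). The GATA factor motif was searched as A or T followed by GATAA or by GATAG, and the ETS factor motif as CCGGAAG, both on both strands. Neither was found in any of the 9 windows, while 26.5% and 6.91% of all windows held them. These are matches of letters in a short window and do not show where a factor binds.

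The other DUSP members gave low signals. Dusp10 encodes a phosphatase that prefers p38 and JNK. Its brighter probe set, 1417164_at, read 104 with estradiol and 119 untreated, both just above the floor, and the log2 ratio of -0.20 lay within 2 SD. The second Dusp10 probe set, 1417163_at, read 54.6 with estradiol and 5.5 untreated, below the floor on both arrays. Dusp4, which encodes a nuclear phosphatase closely related to that of Dusp1, read 9.10 with estradiol and 7.70 untreated. Dusp5, which encodes a nuclear phosphatase selective for ERK, read 19.0 with estradiol and 14.4 untreated. Dusp6 encodes the cytoplasmic phosphatase selective for ERK and is a widely used readout of ERK activity. Its only probe set read 9.20 with estradiol and 30.7 untreated. All 3 of these genes were below the floor on both arrays, where signals have no order, so no ratio was formed. Each was read by 1 probe set, and whether the probes or the transcripts set these weak signals was not tested.

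The Sprouty genes differed little or were not measured. Spry1, which encodes an inhibitor that is recruited to activated receptor complexes and limits RAS and ERK signalling, read 430 with estradiol and 464 untreated, a log2 ratio of -0.11 within 2 SD of 0.60. Spry2, which encodes the related inhibitor that also binds the ubiquitin ligase CBL, was below the floor on both of its probe sets. Probe set 1421656_at read 86.3 with estradiol and 26.8 untreated, and probe set 1436584_at read 22.2 with estradiol and 31.7 untreated. The brighter Spry2 signal lay just under the floor on the estradiol array. Lowering the floor to the 30th percentile, a signal of 31.7, gave a bound of at least 2.72-fold higher after estradiol, and with no floor and 16 added to each signal a log2 ratio of 1.26. The other Spry2 probe set did not show this direction, so the call for Spry2 depends on the floor and on 1 probe set.

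Spred1 and Spred2 were the members with the most probe sets. SPRED proteins sit at the plasma membrane, and SPRED1 brings neurofibromin, the RAS GTPase-activating protein encoded by Nf1, to RAS. Of 8 Spred1 probe sets, 7 were measured. The brightest, 1423160_at, read 1864 with estradiol and 2001 untreated, a log2 ratio of -0.10. Over the 7 the median was also -0.10 and the range -0.40 to 0.76, with 5 below 0 and 2 above.

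The probe sets of Spred1 spread more widely than probe sets of 1 gene did on average. The SD of their 7 log2 ratios was 0.37, against the pooled 0.25. Probe set 1443652_x_at read 451 with estradiol and 267 untreated, a log2 ratio of 0.76 that exceeded 2 SD of 0.60. Probe set 1460116_s_at, designed on the same sequence accession, read 1279 with estradiol and 1684 untreated, a log2 ratio of -0.40 at the edge of 2 SD. The 2 probe sets from 1 accession thus lay in opposite directions. In this array's naming, the endings _x_at and _s_at mark probe sets whose probes can match more than 1 transcript, and the part this plays here was not tested. The other measured Spred1 probe sets ran from -0.25 to 0.13. Probe set 1423161_s_at read 1938 with estradiol and 1776 untreated, and 1428777_at read 757 with estradiol and 822 untreated. Probe set 1452911_at read 538 with estradiol and 637 untreated, and 1423162_s_at read 417 with estradiol and 439 untreated. All 4 differences lay within 2 SD. The last, 1445228_at, was below the floor at 8.6 with estradiol and 6.6 untreated.

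Spred2, which encodes a second SPRED protein with the same type of domains, read 2418 with estradiol and 2713 untreated on its brightest probe set 1434403_at, a log2 ratio of -0.17 within 2 SD of 0.40. The 2 dimmer measured probe sets lay on the other side of 0: 1441415_at read 292 with estradiol and 248 untreated (0.23), and 1436892_at read 205.3 with estradiol and 198.2 untreated (0.05). None of the 3 passed 2 SD, so Spred2 had no settled direction. The remaining 2 probe sets read 34.5 and 29.6 with estradiol, and 24.1 and 24.1 untreated, all below the floor.

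**Figure D2:**
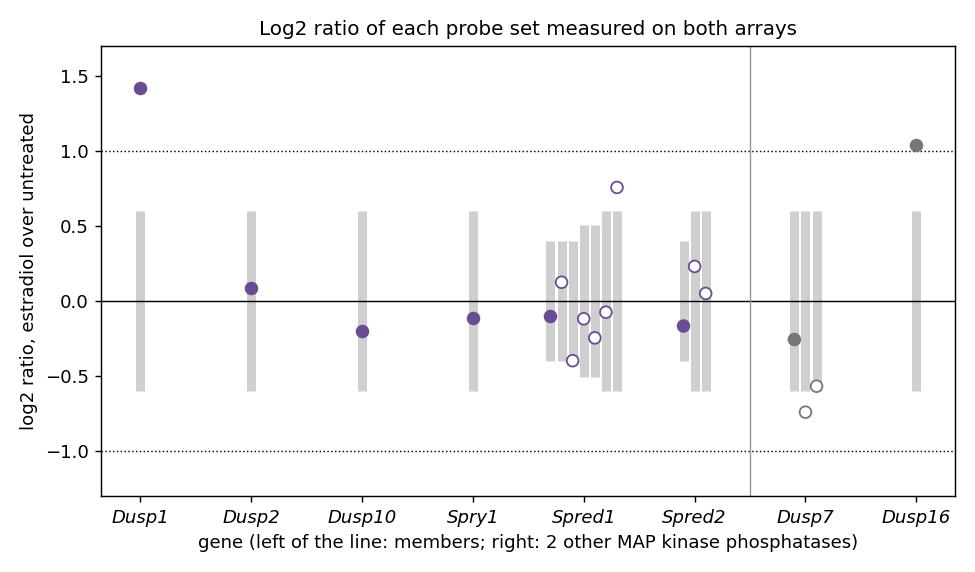
Log2 ratio of estradiol over untreated for each probe set measured on both arrays, for the 6 measured members (purple) and for Dusp7 and Dusp16 (grey), filled for the brightest probe set of a gene. Grey bars span 2 SD of same-gene probe sets on either side of 0 at that signal, and dotted lines mark 2-fold. Dusp1 at 1.42 and Dusp16 at 1.04 lie above the dotted line, and 1 of 7 Spred1 probe sets lies above its grey bar at 0.76.

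The plot of ratios by probe set sets each value against the probe noise at its signal. Of 14 measured member probe sets 2 lay past 2 SD, that of Dusp1 and 1443652_x_at of Spred1. Among all 21054 measured probe sets 15.1% did, so the share of members past 2 SD was near the background.

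**Figure D3:**
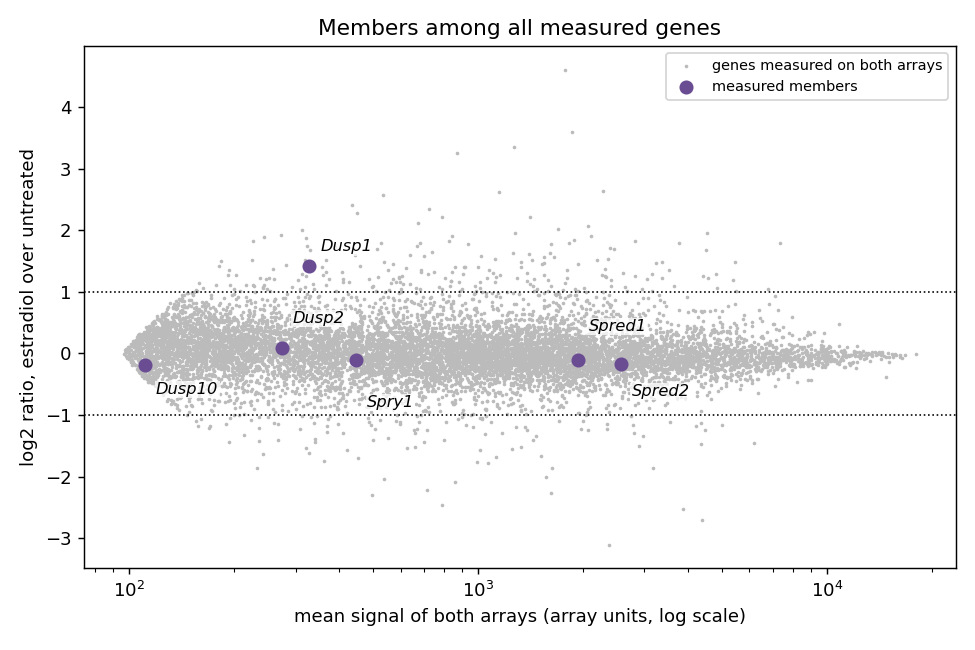
Log2 ratio of estradiol over untreated against the mean signal of both arrays (array units, log scale) for 10240 genes measured on both arrays (grey) and the 6 measured members (purple). Dusp1 lies above the upper dotted line of 2-fold at 1.42, and the other 5 members lie between -0.20 and 0.09.

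The plot of all measured genes places Dusp1 in the upper fringe of genes of its brightness, and places Dusp2, Dusp10, Spry1, Spred1 and Spred2 within the dense band around 0. Spred1 and Spred2 were read at signals in the highest tertile of genes, where the band is narrow.

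Among the remaining genes of the same families, Dusp16 was past 2-fold and Dusp7 was lower on all of its probe sets by less. Of 5 other MAP kinase phosphatase genes on the array 3 were measured, with 1 at least 2-fold higher and 0 lower and a median log2 ratio of -0.15. Dusp16, which encodes a phosphatase that prefers JNK and p38, read 747 with estradiol and 364 untreated, 2.05-fold higher. Its log2 ratio of 1.04 was 0.93 after scaling to a common median and 1.00, just short of 2-fold, after quantile normalization, and its second probe set lay below the floor at 46.8 with estradiol and 11.2 untreated. Dusp7, which encodes a cytoplasmic phosphatase selective for ERK, read 280 with estradiol and 334 untreated on its brightest probe set, a log2 ratio of -0.26. Its other probe sets had -0.57 and -0.74, of which -0.74 passed 2 SD. Styxl1, which encodes a relative without phosphatase activity, read 142 with estradiol and 158 untreated, a log2 ratio of -0.15. Dusp8 and Dusp9 were below the floor on all 3 of their probe sets each. Of the 3 other Sprouty and SPRED genes, Spry3 and Spred3 were below the floor and Spry4 read 100.2 with estradiol and 83.3 untreated, a bound of at least 1.05-fold higher.

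In the RAS and ERK branch no measured gene passed 2-fold. Of the RAS, RAF, MEK and ERK cascade list, 8 of 13 genes were analysed here. All 8 were measured, with 0 past 2-fold and a median log2 ratio of 0.10. The highest were the MEK gene Map2k1 at 0.40 and the RAF gene Braf at 0.26, and the lowest were the scaffold gene Ksr1 at -0.52 and the small GTPase gene Rras at -0.44. Of 11 RAS activators and adaptors on the array 6 were measured, again with 0 past 2-fold and a median of 0.00. The RAS exchange factor gene Sos2 was highest at 0.70, followed by the adaptor gene Gab2 at 0.06, and Grb2, the adaptor that links receptors to SOS, was lowest at -0.46 (-0.79 on its other probe set), followed by Sos1 at -0.42. Sos2 and Grb2 lay past their 2 SD of 0.40.

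In the p38 and JNK cascade, 8 of 12 genes on the array were measured, with 1 at least 2-fold higher, 0 lower and a median log2 ratio of -0.06. Mapk9, a JNK gene, read 2550 with estradiol and 1236 untreated, 2.06-fold higher, and its 3 probe sets ranged from 0.62 to 1.04 on the log2 scale. Scaling to a common median gave 0.93, short of 2-fold. Map2k4, the kinase that activates JNK, was next at 0.92. Map2k3, an activator of p38, was lowest at -0.76, followed by the p38 gene Mapk14 at -0.44, among genes measured on both arrays. The 4 measured Mapk14 probe sets ranged from -0.44 to 0.01. Mapk9, Map2k4, Map2k3 and Mapk14 lay past their 2 SD of 0.40 on their brightest probe sets. Map3k5, a stress-activated kinase upstream of both branches, read 46.4 with estradiol and 162 untreated, a bound of at least 1.71-fold lower.

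Other inhibitors of the pathway included 1 gene past 2-fold. Rasa1, which encodes a RAS GTPase-activating protein, read 2742 with estradiol and 5972 untreated, 2.18-fold lower, and its 3 probe sets ranged from -1.34 to -1.12. It was the only 1 of 5 measured RAS GTPase-activating protein genes past 2-fold, with 0 higher and a list median of -0.07. Rasal1 was highest at 0.49, Rasal2 came next at 0.31 and Rasa2 had -0.29. Nf1, whose product SPRED1 recruits, read 331 with estradiol and 348 untreated, a log2 ratio of -0.07. Of 8 measured other negative regulators 0 passed 2-fold and the median was -0.19, from Dok2 at -0.45 and the phosphatase gene Ptpn6 at -0.40 to Dok1 at 0.20 and the lipid phosphatase gene Inpp5d at 0.37. The other Ptpn6 probe set had -0.92.

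**Figure D4:**
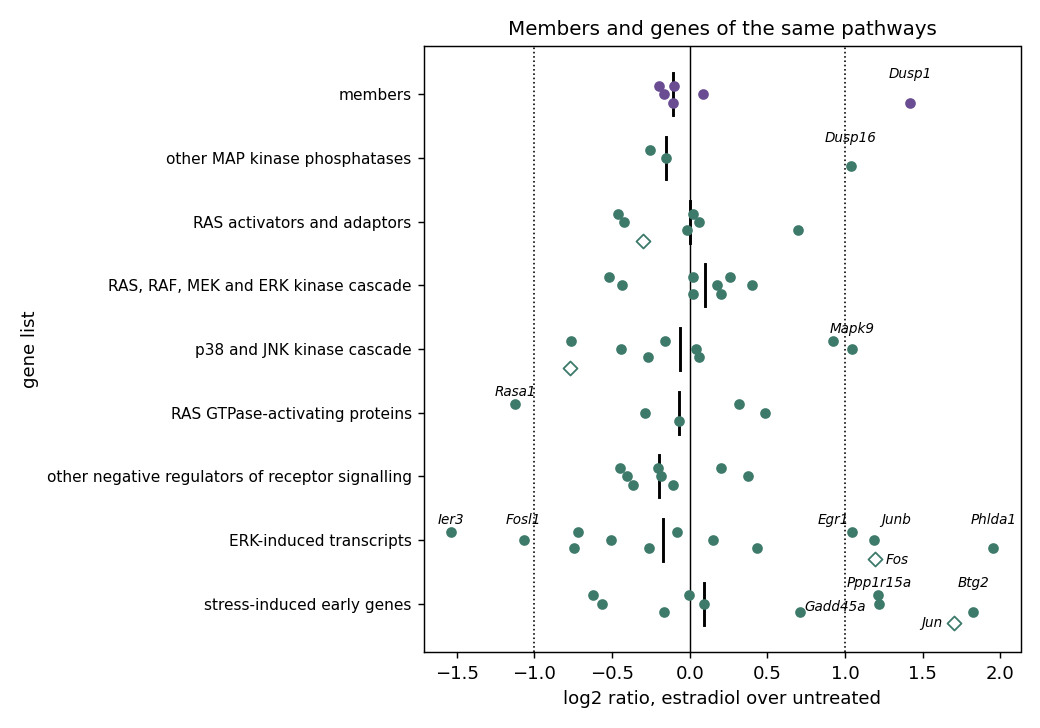
Log2 ratio of estradiol over untreated for the measured members (purple) and measured genes of 8 lists of the same pathways (green), with a black bar at each list's median. Open diamonds are bounds for genes that reached the floor on 1 array only, dotted lines mark 2-fold, and genes past 2-fold are named. The medians lie between -0.19 and 0.10, and genes past 2-fold on both sides appear in the list of ERK-induced transcripts.

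Past 2-fold, transcripts that ERK signals induce along with Dusp1 went both ways, while those that stress signals induce were only higher. Of 12 measured ERK-induced transcripts 3 were higher and 2 were lower by at least 2-fold, with a median log2 ratio of -0.17. Among all measured genes the shares were 2.04% higher and 1.10% lower, but the list was chosen with earlier results of these data known. Phlda1 was highest at 3.88-fold (7221 with estradiol and 1861 untreated), the AP-1 factor gene Junb was 2.28-fold higher (423 with estradiol and 185 untreated), and the early growth response gene Egr1 was 2.07-fold higher (3976 with estradiol and 1923 untreated), though its log2 ratio was 0.94 after scaling to a common median. Fos read 217 with estradiol and 81.8 untreated, a bound of at least 2.28-fold higher. In the other direction, the early response gene Ier3 was 2.90-fold lower (165 with estradiol and 478 untreated) and the AP-1 factor gene Fosl1 was 2.10-fold lower (241 with estradiol and 505 untreated).

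Of 9 measured stress-induced early genes 3 were at least 2-fold higher and 0 lower, with a median log2 ratio of 0.09. The shares among all measured genes were again 2.04% and 1.10%, and this list too was chosen with earlier results known. Besides Btg2, an antiproliferative gene at 3.55-fold, the 3 were Ppp1r15a, a phosphatase subunit of the stress response, at 2.33-fold (1490 with estradiol and 640 untreated), and Gadd45a at 2.32-fold. Jun read 309 with estradiol and 86.5 untreated, a bound of at least 3.25-fold higher. The RNA-binding protein genes Zfp36l1 and Zfp36 were lowest at -0.63 and -0.57. The plot of members and pathway genes shows Dusp1 past 2-fold in the same direction as Junb, Egr1 and Ppp1r15a and opposite to Ier3 and Fosl1. With 1 array per group, the data give each gene a single ratio and no pattern over samples, so no gene was ranked by likeness to Dusp1.

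Both arrays carried the erythroid markers of the line: all 7 on the array were measured, the brightest being Tfrc at 10048 with estradiol and 9175 untreated and Klf1 at 6997 with estradiol and 4554 untreated. Of the 7, 1 was at least 2-fold higher (Alas2, 3430 with estradiol and 283 untreated) and 0 at least 2-fold lower. Log2 ratios were -0.78 for Hemgn, -0.56 for Tal1, -0.13 for Epor and 0.86 for Slc4a1. The other measured Slc4a1 probe set had 1.21, past 2-fold. Mast cell markers moved between the arrays in both directions. Of 8 such genes 4 were measured, with 1 at least 2-fold higher (Tpsab1), 2 lower (Cpa3 and Ms4a2) and Cma1 at a log2 ratio of 0.19. The bounds were at least 1.59-fold higher for Hdc, 1.05-fold higher for Tpsb2 and 1.52-fold lower for Fcer1a. Mcpt4 was below the floor on both arrays. The summed signal of all 8 genes was 5873 with estradiol and 9236 untreated. Its largest part was Tpsab1 with estradiol (3418) and Cpa3 untreated (6616). No megakaryocyte, neutrophil and macrophage, or lymphoid marker measured here was past 2-fold, over 8 measured genes. The part of erythroid or mast cell transcripts in the ratio of Dusp1 was not tested. The arrays were alike in brightness, with 50.9% of probe sets at or above the floor with estradiol and 49.2% untreated.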

How the data were processed

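Total RNA of G1E cells was hybridised to short-oligonucleotide arrays, 1 per group. The deposited values are linear signal intensities per probe set, which the authors made with GCOS per the submitters' processing notes (no version is given in the sources used here). Both arrays had a 2% trimmed mean of 500.0. Scaling to a common target was inferred from these equal means only. Symbols came from the platform annotation. All 10 members kept their symbol in the RefSeq table for GRCm38.p6.

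Here, both arrays were set to 1 trimmed mean over 45037 probe sets that were not controls. Ratios, the floor and the 2-fold rule are as given above, and no p-value was formed. A ratio with 1 array under the floor was computed against the floor and is a bound. The number of arrays limits the precision. The members and lists were chosen with earlier results of these data known. Named beside the members are the pathway genes past 2-fold, the 2 highest and 2 lowest of each list, and Nf1, Styxl1 and family genes named after their values were seen. Alternatives covered scaling, floor, probe set choice and threshold. The steps were tested on simulated data. Scripts ran in Python 3.11.15 (pandas 2.3.3, numpy 2.4.6, matplotlib 3.10.9, statsmodels 0.14.6).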

Additional observations from a re-analysis of the deposited data

How the results depend on the processing

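Dusp1 stayed at least 2-fold higher, with log2 ratios from 1.31 to 1.42, under the 4 other scalings and without a floor, and the floor at the 70th percentile left it only as a bound. The lower floor could not change it, since both Dusp1 signals already lay above the main floor. Both other choices of probe set could not change it either, since it has 1 probe set. The number of members past the threshold on the higher side was 0 with a floor at the 70th percentile (3 members measured), 2 with no floor and 16 added to each signal (Dusp1 and Spry2), and 0 at 3-fold. Without a floor, Dusp4, Dusp5 and Dusp6 had log2 ratios of 0.08, 0.20 and -0.89. Taking the dimmest measured probe set gave Spred1 0.76. The counts over all genes followed the floor and the threshold: 439 higher and 288 lower at the 30th percentile, 130 and 65 at the 70th, 679 and 512 with no floor, 728 and 497 at 1.5-fold, and 49 and 21 at 3-fold, against 209 and 113. Scaling to a common median moved the median of all measured genes by -0.11 on the log2 scale. It shifts every measured gene by the same amount, and Dusp16, Egr1 and Mapk9 then fell short of 2-fold. Dusp1 and the named pathway genes past 2-fold kept their direction wherever they were measured. No paired analysis was possible because each group held 1 array. Signals near the floor limit Dusp10 and Spry2, and Dusp4, Dusp5 and Dusp6 lay far below it.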
